A study of Mus musculus with 6 samples.

Results

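Ccr7, S1pr1, Il7r, Klf2, Tcf7, Lef1 and Satb1, genes of homing and quiescence in naive T cells, were followed in the spleens of wild type (WT) and miR-144/451 knockout (KO) mice. They were chosen by name. Their Ensembl identifiers picked 7 rows of the 44678 genes counted by RNA-seq in 6 libraries. The comparison asked whether their RNA differed between the genotypes, first as CPM, counts scaled to 1000000 per library, and then as a ratio to Cd3e, a chain of the T cell receptor complex.

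The 3 WT and 3 KO libraries came from untreated C57BL/6J mice aged 8 to 12 weeks, and the KO mice lack a short genomic segment that holds the precursors of miR-144 and miR-451. The labels call the cells CD8a+ spleen leukocytes. The study's methods describe magnetic beads against Ly-2 (CD8a) for CD8+ T cells, and CD8a is also found on a subset of dendritic cells. The study itself presents its RNA sequencing as a question about dendritic cells, and the sources used here do not say which sort made these libraries, so Cd3e measures the T cell RNA in them and not that of all sorted cells. The labels give no animal for a library, so p-values measure the spread between these libraries, which may in part be technical.

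Naive T cells circulate between blood and lymphoid organs. CCR7 draws them into the T cell zones, S1PR1 lets them leave along the gradient of sphingosine-1-phosphate, and the interleukin-7 receptor keeps them alive between encounters with antigen. KLF2 turns on S1pr1 and holds the cells at rest, TCF1 (Tcf7) and LEF1 keep the naive program, and SATB1 organises chromatin in the T lineage. CCR7, S1PR1 and KLF2 are also used by B cells.

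The libraries held between 8143971 and 8876570 counts. The precursor genes of the deleted microRNAs, Mir144 and Mir451a, were at 0 counts in all 6 libraries, WT included, so these genes give no check of the genotype labels. T cell markers were present in all libraries (13 genes, 4204 to 5492 summed CPM in WT and 3126 to 5251 in KO), and so were markers of other cells. B cell markers summed to between 1687 and 2994 CPM in WT and between 1459 and 3452 CPM in KO (10 genes). The libraries WT1, KO1 and KO2 were the lowest in T cell markers and the highest in B cell, monocyte and neutrophil markers, and WT2, WT3 and KO3 were the reverse. Both genotypes were thus found on both sides of this difference in content. In sorted bulk cells, fewer T cells and less RNA per T cell cannot be told apart.

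The microRNAs that the KO mice lack are shown because a messenger RNA could be paired with them through the seed, bases 2 to 8, which is in capitals (mature sequences from RefSeq, GRCm38.p6, chr11, plus strand). miR-144-5p lies at chr11:78073010-78073032, miR-144-3p at chr11:78073047-78073066 and miR-451a at chr11:78073186-78073207.
miR-144-5p: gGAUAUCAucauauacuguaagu
miR-144-3p: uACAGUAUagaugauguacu
miR-451a: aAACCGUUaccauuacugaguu
The 3 seeds differ from each other. The complement of each seed was searched as a word of 7 bases (TGATATC for miR-144-5p, ATACTGT for miR-144-3p and AACGGTT for miR-451a) on the sense strand of all annotated 3′-UTRs of each gene. Of 21045 protein-coding genes, 7.41%, 13.4% and 2.21% held these words in any of their 3′-UTRs. Lengths given below are those of the longest 3′-UTR of a gene.

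Il7r and Lef1 held such words and the other 5 members held none. Il7r, in a transcript with a 3′-UTR of 2569 bases, had 1 word for miR-144-5p and 2 for miR-144-3p. Among genes with a 3′-UTR of similar length, 11.4% had at least 1 word for miR-144-5p and 22.4% for miR-144-3p. Lef1, with a 3′-UTR of 1287 bases, had 1 word for miR-451a, as had 1.96% of genes with a 3′-UTR of similar length. The words are in capitals within their surroundings (GRCm38; Il7r on the minus strand at chr15:9507361-9507389, chr15:9506573-9506601 and chr15:9506300-9506328, Lef1 on the plus strand at chr3:131223305-131223333).
Il7r, miR-144-5p: gagattttaagTGATATCcaaatttttct
Il7r, miR-144-3p: ataactgaaagATACTGTggttgggtgcc
Il7r, miR-144-3p: actatgtccaaATACTGTgaaatataatg
Lef1, miR-451a: agaaagccgaaAACGGTTgtttcggaaaa
A match of letters is a description of the sequence and not a site of regulation. Il7r and Lef1 gave lower fitted values in KO than in WT, with intervals that included 0 (values with each gene in the account that follows).

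None of the 7 members passed the test between genotypes. In edgeR's quasi-likelihood fit of 13024 genes, with p-values adjusted after Benjamini and Hochberg, 0 of 7 had an adjusted p under 0.05, where 0.0307% of all tested genes (4 genes) had one. At an unadjusted p under 0.05 the count was also 0 of 7, against 6.25% of all tested genes. DESeq2 likewise called 0 members after adjustment and 1 before it (Lef1, unadjusted p = 0.0374), and limma voom called 0 before and after. All 7 fitted log2 fold changes were below 0, with a median of -0.19, beside 6438 of 13024 tested genes and a median of 0.0030 over all of them. Over the T cell markers, 12 of 13 were below 0 with a median of -0.31, and whether this has a part in the members' values was not tested.

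The homing receptors were expressed in every library. Ccr7, the receptor for the chemokines of the T cell zone (ENSMUSG00000037944, chr11:99144196-99155077 on GRCm38, minus strand), had 482, 543 and 574 CPM in WT1, WT2 and WT3, and 441, 512 and 465 CPM in KO1, KO2 and KO3. KO2 was above WT1, so the groups overlapped. The means were 533 ± 46.8 CPM in WT and 473 ± 36.0 CPM in KO (SD, n = 3 each), and the log2 fold change was -0.19 (SE 0.11, 95% interval -0.44 to 0.050, edgeR adjusted p = 0.816).

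S1pr1, the receptor that guides exit from lymphoid organs (ENSMUSG00000045092, chr3:115710433-115715072, minus strand), had 404, 462 and 419 CPM in the WT libraries and 392, 390 and 391 CPM in the KO libraries. It was the only member whose KO libraries all lay below all WT libraries in CPM. Over all tested genes, 4.81% did so. The gap between KO1 and WT1 was small, and the fitted log2 fold change was -0.15 (SE 0.089, 95% interval -0.36 to 0.054, edgeR adjusted p = 0.817). Without WT2 it was -0.092. The count of such members was 1 with TMM scaling, 2 with upper-quartile scaling, where Klf2 joined S1pr1, and 0 as a ratio to Cd3e.

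Il7r, the interleukin-7 receptor α chain (ENSMUSG00000003882, chr15:9505788-9530176, minus strand), varied more within than between the genotypes. Its values were 329, 401 and 419 CPM in the WT libraries and 281, 237 and 420 CPM in the KO libraries. KO3 was the highest of all 6 libraries and KO2 the lowest. The means were 383 ± 47.5 CPM in WT and 313 ± 95.5 CPM in KO, and the log2 fold change was -0.31 (SE 0.21, 95% interval -0.79 to 0.18, edgeR adjusted p = 0.830). Without KO3 it was -0.61 (adjusted p = 0.133), and without KO2 it was -0.14, so its size moved in opposite directions with these KO libraries.

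**Figure D1:**
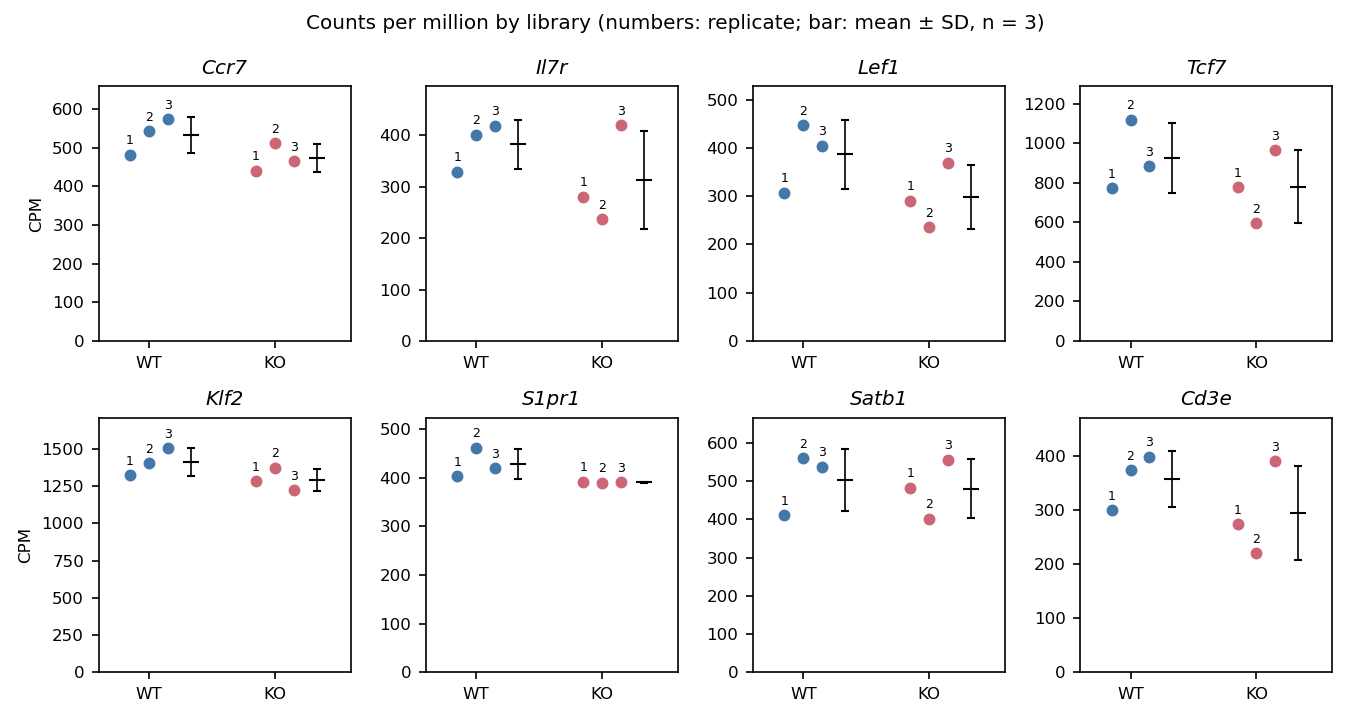
CPM of the 7 members and Cd3e in each library (numbers are replicates; bars give the mean ± SD, n = 3; each panel has its own axis from 0). The KO points of S1pr1 lie together between 390 and 392 CPM, while those of Il7r run from 237 to 420 CPM, in the same order of libraries as Cd3e.

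Klf2, the transcription factor of quiescence and exit (ENSMUSG00000055148, chr8:72319033-72321656, plus strand), was the most abundant member. It had 1326, 1405 and 1507 CPM in the WT libraries and 1283, 1373 and 1225 CPM in the KO libraries. KO2 lay above WT1, by less than the spread within either group. The log2 fold change was -0.15 (SE 0.097, 95% interval -0.37 to 0.077, edgeR adjusted p = 0.827).

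Tcf7, which encodes TCF1 (ENSMUSG00000000782, chr11:52252371-52283014, minus strand), had 773, 1120 and 883 CPM in the WT libraries and 779, 595 and 965 CPM in the KO libraries. Its groups overlapped widely, with WT1 below both KO1 and KO3. The log2 fold change was -0.27 (SE 0.20, 95% interval -0.73 to 0.20, edgeR adjusted p = 0.851), and it was -0.48 without KO3 and -0.10 without either KO2 or WT2.

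Lef1, the partner of TCF1 (ENSMUSG00000027985, chr3:131110471-131224356, plus strand), had 307, 448 and 405 CPM in the WT libraries and 291, 236 and 369 CPM in the KO libraries. KO3 was above WT1, and the log2 fold change was the lowest of the members at -0.39 (SE 0.19, 95% interval -0.84 to 0.058, edgeR adjusted p = 0.816). It was -0.60 without KO3 and -0.24 without KO2. Exons of Lef1 share 1208 bases (13.7%) with the antisense gene Gm43352, which had between 264 and 629 counts against 1945 to 3973 for Lef1. Whether reads were assigned by strand is not given in the sources used here, so reads of this stretch cannot be told apart.

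Satb1, the chromatin organiser (ENSMUSG00000023927, chr17:51736187-51833290, minus strand), was the member with the smallest fitted difference. It had 410, 559 and 537 CPM in the WT libraries and 482, 401 and 556 CPM in the KO libraries, and the ranges almost coincided. The log2 fold change was -0.085 (SE 0.16, 95% interval -0.46 to 0.29, edgeR adjusted p = 0.931). It was 0.13 with the Cd3e level as a covariate, 0.0010 without WT2 and 0.032 without KO2, so its direction was not fixed.

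**Figure D2:**
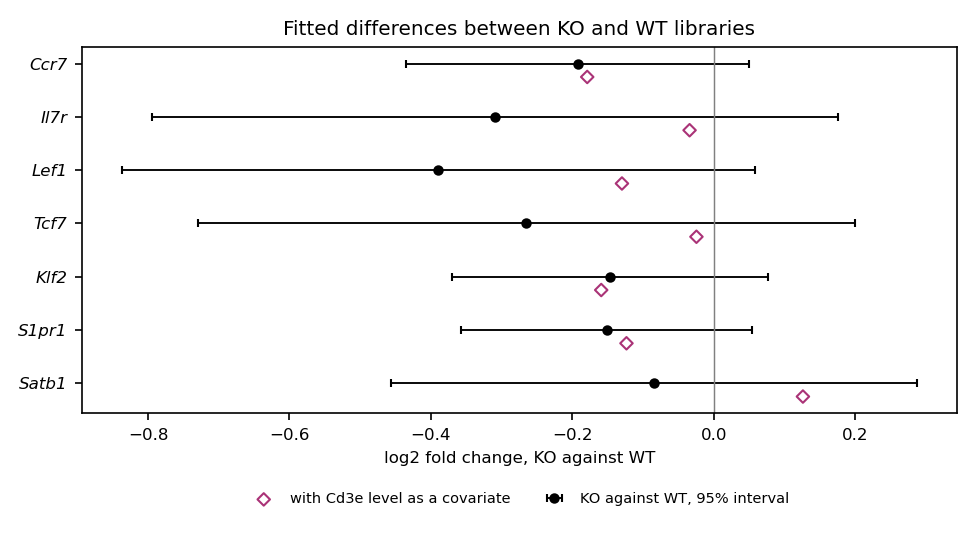
Fitted log2 fold change of each member, KO against WT, with its 95% interval (black), and the same with the Cd3e level of each library as a covariate (open diamonds). All 7 intervals include 0; with the covariate Il7r moves from -0.31 to -0.034, Tcf7 from -0.27 to -0.024, Lef1 from -0.39 to -0.13 and Satb1 from -0.085 to 0.13, while Ccr7, Klf2 and S1pr1 stay between -0.18 and -0.12.

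Compared per kilobase of exon, the levels of the members kept a wide order. Klf2 led with a mean of 733 CPM per kilobase over the 6 libraries, followed by Tcf7 with 325, Ccr7 with 254 and S1pr1 with 134. Il7r had 74.6, beside 79.9 for Cd3e, and Lef1 and Satb1 were at 39.0 and 25.8 CPM per kilobase. Tcf7 and Ccr7 did not separate by their ranges over libraries (227 to 427 and 223 to 290), nor did Il7r and Lef1 (50.9 to 90.1 and 26.9 to 50.9) or Lef1 and Satb1 (21.1 to 29.4). Within single libraries on this scale, Il7r was above Lef1 and Lef1 above Satb1 in each, and Tcf7 was above Ccr7 in all but KO2. The order of the members was the same with the length of the longest transcript, where Il7r, Lef1 and Satb1 came closer together (98.3, 93.7 and 78.6 CPM per kilobase) and Cd3e was at 128. Klf2 ranked 61 and Satb1 1966 among 44121 genes on the exon scale.

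The second reading scaled each member to Cd3e in the same library. Cd3e itself had 300, 373 and 398 CPM in the WT libraries and 274, 220 and 390 CPM in the KO libraries. The WT and KO ratios to Cd3e overlapped for all 7 members, where 5.59% of tested genes had groups that did not overlap. The exact two-sided permutation test, whose smallest possible p is 0.1 with 3 against 3 libraries, gave unadjusted p between 0.2 (Satb1) and 0.8 (Tcf7) in the 7 tests. With other references, 2 members no longer overlapped. All Satb1 ratios were higher in KO against the sum of Cd3d, Cd3e and Cd3g (log2 difference 0.28, SE 0.10) and against Lck (0.16, SE 0.053), and all Lef1 ratios were lower in KO against Lck (-0.15, SE 0.049), each with an exact permutation p = 0.1, the smallest this test can give. After Benjamini-Hochberg adjustment over the 7 members, the permutation p was 0.7 for Satb1 against the summed Cd3 genes and 0.35 for Satb1 and Lef1 against Lck. Over all tested genes, 10.5% did not overlap against the summed Cd3 genes and 6.4% against Lck. Neither member separated against Cd8a.

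Il7r followed Cd3e almost exactly. The ratio was 1.10, 1.07 and 1.05 in the WT libraries and 1.03, 1.08 and 1.08 in the KO libraries, although its CPM differed by up to 1.77 times. The highest ratio was 1.07 times the lowest, and the log2 difference of KO from WT was -0.019 (SE 0.030, exact permutation p = 0.7). The coefficient of variation (CV) over the 6 libraries was 2.33% for the ratio, against 22.3% for the CPM, and counting error alone would give about 2.70%.

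This was the smallest CV of a ratio to Cd3e among the 6003 genes with a mean log2 CPM of at least 5. The comparison was made after the values were seen and is given as a description. The next genes were Prkcq, Crtam and Cd96, at 4.74%, 4.77% and 4.81%, all of them genes of T or NK cells. The rank depended on the reference, since 1 gene had a smaller CV than Il7r when the sum of Cd3d, Cd3e and Cd3g was used, 15 with Cd8a (Il7r CV 9.54%) and 110 with Lck (7.77%).

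Lef1 and Tcf7 also varied less as a ratio than as CPM. For Lef1 the ratio was 1.03, 1.20 and 1.02 in WT and 1.06, 1.07 and 0.947 in KO, with a CV of 7.95% against 22.9% in CPM. For Tcf7 it was 2.58, 3.0 and 2.22 in WT and 2.85, 2.70 and 2.48 in KO, with a CV of 10.5% against 21.2%. Among genes with a mean log2 CPM of at least 5, a smaller CV as a ratio was rare, at 305 genes (5.08%), a count that includes Cd3e itself. The medians over these genes were 25.6% for the ratio and 8.89% for the CPM.

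Satb1 lay between these genes and the rest. Its ratio was 1.37, 1.5 and 1.35 in WT and 1.76, 1.82 and 1.43 in KO, with a CV of 13.3% against 14.6% in CPM. The log2 difference of 0.24 (SE 0.12) was the largest of the members, and only KO3 reached into the range of the WT libraries (exact permutation p = 0.2).

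Ccr7, S1pr1 and Klf2 varied more as a ratio to Cd3e than in CPM, as did most genes. The CVs of Ccr7 and Klf2 lay nearer the medians over all genes in both than those of S1pr1. For S1pr1, 24.8% of genes had a smaller ratio CV and 29.7% a smaller CPM CV. The Ccr7 ratio was 1.61, 1.45 and 1.44 in WT and 1.61, 2.33 and 1.19 in KO, and its CV rose from 9.90% in CPM to 24.0%. The S1pr1 ratio was 1.35, 1.24 and 1.05 in WT and 1.43, 1.77 and 1.0 in KO, with CVs of 6.84% and 21.5%. The Klf2 ratio was 4.42, 3.76 and 3.78 in WT and 4.69, 6.24 and 3.14 in KO, with CVs of 7.30% and 24.8%. KO2, the library with the fewest T cell markers, had the highest ratio of each of these 3 genes, and KO3 the lowest. Without KO2 the log2 difference of KO from WT went from 0.14 to -0.11 for Ccr7, from 0.18 to -0.0092 for S1pr1 and from 0.18 to -0.052 for Klf2.

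**Figure D3:**
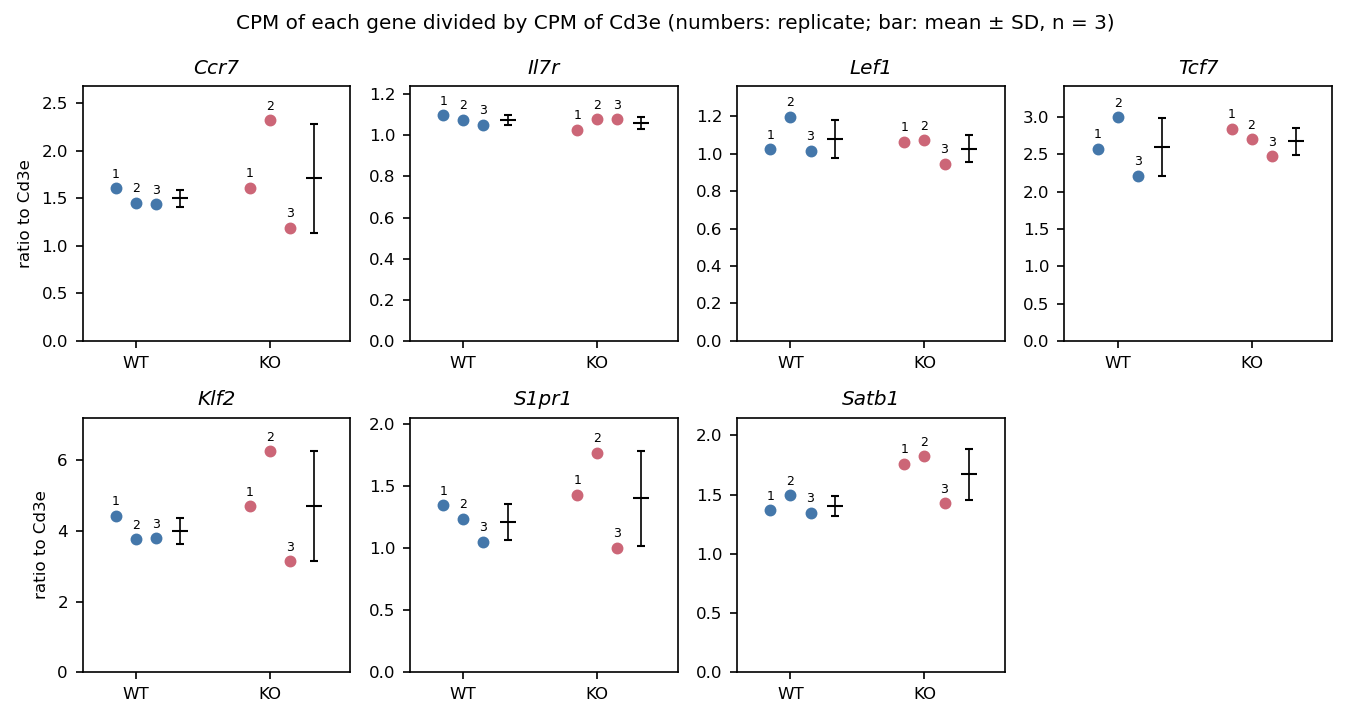
Ratio of the CPM of each member to the CPM of Cd3e by library (numbers are replicates; bars give the mean ± SD, n = 3; each panel has its own axis from 0). The 6 ratios of Il7r lie between 1.03 and 1.10, whereas KO2 stands above the other libraries for Ccr7, Klf2 and S1pr1.

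**Figure D4:**
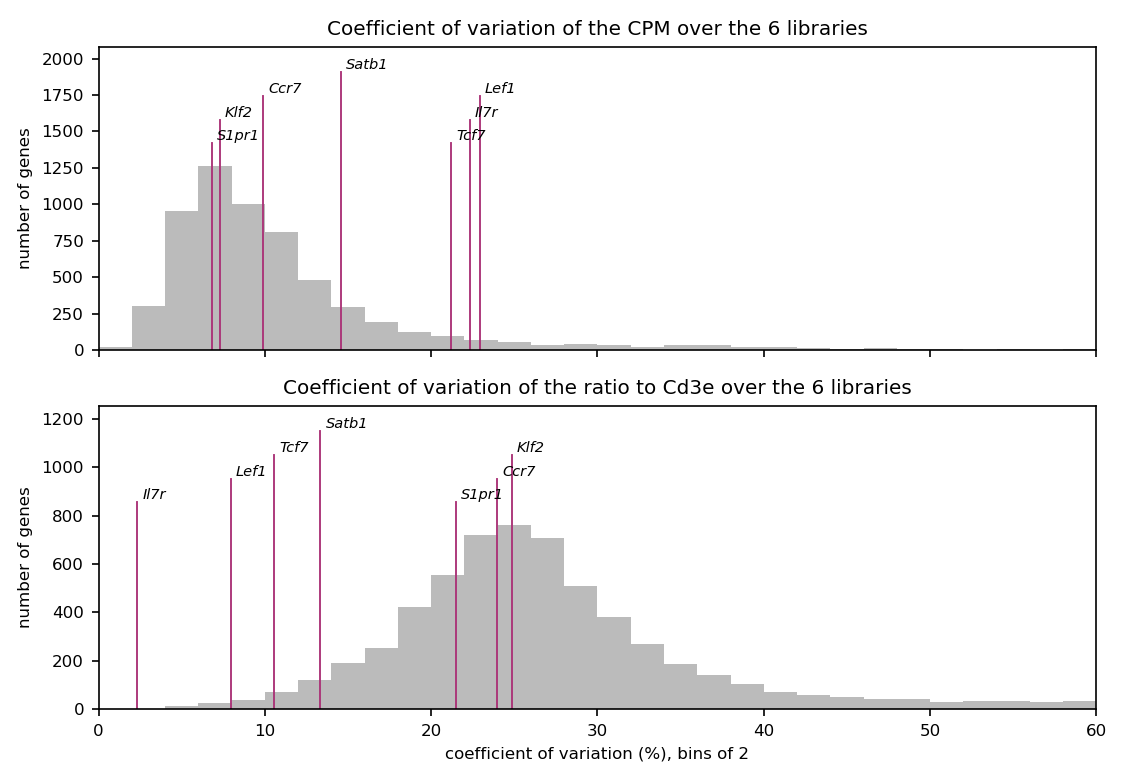
Number of genes by coefficient of variation over the 6 libraries, in CPM (top) and as a ratio to Cd3e (bottom), for genes with a mean log2 CPM of at least 5, with the members as lines (genes above 60% are not drawn). Il7r, Lef1 and Tcf7 move from the right of the distribution in CPM to its left end in the ratio. Ccr7 and Klf2 sit nearer the middle in both, and S1pr1 lies to the left of the middle in both.

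A division of this kind was seen between the KO libraries that stood furthest apart in content, KO2 with 3126 and KO3 with 5251 summed CPM of T cell markers. KO2 had 0.565 of the Il7r level of KO3, 0.640 of Lef1, 0.617 of Tcf7 and 0.722 of Satb1, beside 0.565 of Cd3e and 0.470 of Cd8a. In contrast, it had 1.10 of the Ccr7 level, 1.12 of Klf2 and 0.997 of S1pr1, beside 2.23 of Ms4a1, which encodes CD20 of B cells. Between WT1 and WT2, the WT libraries furthest apart in summed T cell markers, it was weaker. WT1 had 0.820 of the Il7r level of WT2, 0.686 of Lef1, 0.690 of Tcf7 and 0.733 of Satb1, but also 0.887 of Ccr7, 0.873 of S1pr1 and 0.943 of Klf2, so that Il7r lay close to S1pr1. Between WT1 and WT3 it was not seen, since WT1 was lower in all 7 members and by a smaller factor for Tcf7 than for Ccr7. KO2 and KO3 also gave the extremes of the ratios to Cd3e of Ccr7, S1pr1 and Klf2, so their comparison is not a separate observation. These are values of single libraries with no test, and the part of cell content in them was not tested.

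**Figure D5:**
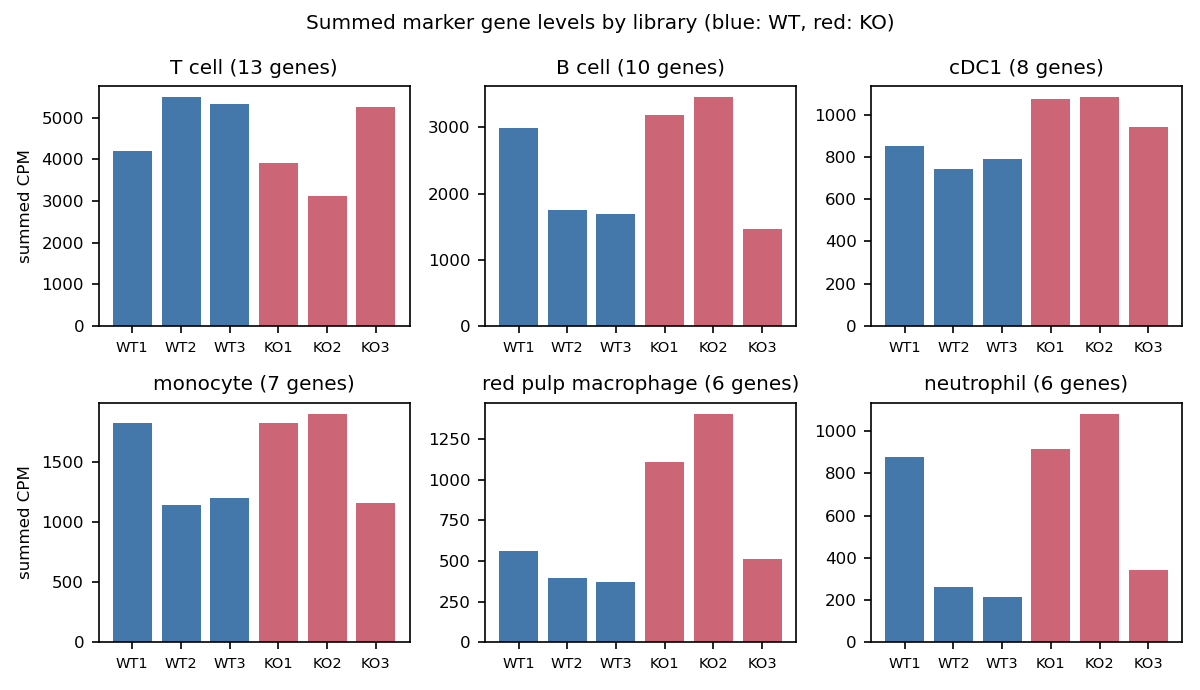
Summed CPM of marker genes for 6 cell types in each library (blue WT, red KO; each panel has its own axis from 0). WT1, KO1 and KO2 are low in T cell markers and high in B cell, monocyte and neutrophil markers. Markers of type 1 conventional dendritic cells (cDC1) sum to 742 to 852 CPM in WT and 941 to 1081 CPM in KO, a difference that was not tested. Wdfy4 and Cd24a are the most abundant of these 8 genes (mean log2 CPM 8.68 and 7.74, against 4.39 for Xcr1). Itgae has a log2 fold change of -0.19, and the other 7 are above 0.

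Single markers showed the content of the libraries gene by gene. Cd8a ran from 692 to 1028 CPM in WT and from 481 to 1023 CPM in KO. Ms4a1 had 209 to 384 CPM in WT and 192 to 428 CPM in KO, Cd4 34.3 to 67.2 and 28.5 to 76.3 CPM, and Lyz2 of myeloid cells 294 to 742 and 235 to 735 CPM. S100a8 of neutrophils had 64.9 to 228 CPM in WT and 96.1 to 304 CPM in KO. Xcr1, a marker of cDC1, had 15.2 to 17.5 and 16.6 to 33.4 CPM, Siglech of plasmacytoid dendritic cells 12.3 to 13.1 and 9.0 to 15.2 CPM, and the globin gene Hba-a1 44.1 to 205 and 87.5 to 570 CPM. No marker in the lists was at or under the floor of 3 counts in every library. Red pulp macrophage markers summed to between 371 and 564 CPM in WT and between 514 and 1403 CPM in KO, and 5 of 6 were higher in KO at an unadjusted p under 0.05, as were 4 of 8 cDC1 markers and 4.14% of all tested genes, with no marker under 0.05 after edgeR's adjustment. With the Cd3e level as a covariate, 3 of these markers passed, all higher in KO, where 0.0845% of all tested genes (11 genes) were: Slc40a1 (log2 fold change 0.83, SE 0.10, edgeR adjusted p = 0.0162) and Hmox1 (0.65, SE 0.097, adjusted p = 0.0466) of red pulp macrophages, and Naaa of cDC1 (0.75, SE 0.11, adjusted p = 0.0466).

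The pathways around the members were read from 7 lists of 95 genes, of which 91 were tested. None passed the adjusted threshold by edgeR's quasi-likelihood test, and at an unadjusted p under 0.05 there were 3 higher and 4 lower in KO, beside the 6.25% of all tested genes. In the list of homing receptors and ligands, 10 of 12 tested genes had log2 fold changes below 0 (median -0.14). Itgb7, the β7 integrin chain of gut homing, had -0.42 (SE 0.15, unadjusted p = 0.0234, adjusted p = 0.768), and Icam2, an adhesion ligand, had -0.20 (SE 0.083, adjusted p = 0.786).

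The list around S1pr1, with the other sphingosine-1-phosphate receptors and the enzymes and transporters of the lipid, had 8 of 15 genes below 0 (median -0.020) and none at an unadjusted p under 0.05. The list around Il7r had 9 of 12 below 0 (median -0.080). Il2rg, the common γ chain that pairs with the Il7r product, was lower in all KO libraries than in all WT libraries, at 502, 523 and 542 CPM in WT against 430, 398 and 498 CPM in KO. The same was true of 4.81% of all tested genes and, among the pathway genes, of Icam2, Vsir, Klf3 and Ets1. Its log2 fold change was -0.26 (SE 0.11, unadjusted p = 0.0447, edgeR adjusted p = 0.786).

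Quiescence factors had 14 of 22 genes below 0 (median -0.034), led by Vsir, the checkpoint receptor VISTA, at -0.23 (SE 0.10, edgeR adjusted p = 0.786). Regulators of KLF2 had 3 of 9 below 0 (median 0.035), and Mef2a, a transcription factor upstream of Klf2, was at 0.19 (SE 0.076, adjusted p = 0.786). The TCF/LEF list had 6 of 14 below 0 (median 0.020) and the list of SATB1 and T cell chromatin 4 of 7 (median -0.024), where Cux1 was at 0.21 (SE 0.090, adjusted p = 0.786).

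Tcf7l2, which encodes TCF4 of the same family as TCF1 and LEF1, had the largest fold of the 91 genes. It had 8.5, 4.2 and 4.3 CPM in the WT libraries and 14.2, 18.9 and 7.2 CPM in the KO libraries. WT1 lay above KO3, and the log2 fold change of 1.22 (SE 0.41, edgeR unadjusted p = 0.0168, adjusted p = 0.716) did not pass. Its high libraries WT1, KO1 and KO2 were those with the fewest T cell markers.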

How the data were processed

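RNA of spleen CD8a+ leukocytes was sequenced in 3 WT and 3 KO libraries, with a SMARTER mRNA-Seq kit. For each Ensembl gene, the values the authors deposited are expected counts, estimates that can be fractions of a read, unscaled for depth or length. The unit was read from the values. The submitters' processing notes name GRCm38 and mm10. The aligner, counter, annotation and use of strand are not given in the sources used here, and reads of overlapping genes may therefore be split or shared. Of 44678 identifiers, 44121 were in GENCODE M21 on GRCm38, which gave symbols, positions, lengths and 3′-UTRs, and 176 of 177 list entries were matched (Ahsp was not).

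CPM were counts scaled to a library total of 1000000. Counts were rounded and fitted in R 4.3.3 with edgeR 4.0.16 (TMM factors 0.989 to 1.01, filterByExpr at min.count 10 and min.total.count 15, quasi-likelihood test, Benjamini-Hochberg adjustment over 13024 genes, threshold 0.05). A count of 3 was taken as the floor. Ratios to Cd3e were compared by exact two-sided permutation over the 20 assignments. Alternatives were DESeq2 1.42.0, voom of limma 3.58.1, other scalings and filters, a replicate block, Cd3e as a covariate, other reference genes and each library left out. Scripts were tested on simulated counts. Between 1.28% and 1.66% of the 31-base words of Lef1 and Il7r, and fewer in the other members, occur in another gene.

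The members and lists were chosen with earlier results of these data known. The genes named were all 7 members, Cd3e, the markers of the label, pathway genes past the threshold, and up to 2 genes per pathway list with the smallest unadjusted p under 0.05, together with the 5 genes with the pattern most like the members. Some genes that the rule covers are not reported here. Named outside it, after their values were seen, were the genes with the smallest ratio spread, those closest to single members, pathway genes lower in all KO libraries and markers past the threshold with the Cd3e covariate, and, for what they are, the reference genes and the antisense gene at Lef1. Pairs of libraries of one genotype differed by 6.25 to 24.0 times the sampling noise (chi-square per degree of freedom), so each counted as 1 sample.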

Additional observations from a re-analysis of the deposited data

How the results depend on the processing

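No member and no pathway gene passed the adjusted threshold in any of the 14 alternatives, and the adjusted p of Lef1 ranged from 0.210 without KO3 to 1.0 without KO2. At an unadjusted p under 0.05 there were 3 members without KO3 (smallest for Il7r, adjusted p = 0.133), 2 without WT1, 1 with DESeq2, 1 with no filter and 0 in the others. Over all genes, 4 passed in the reported fit, 56 with DESeq2, 12 with no filter, 14 with Cd3e as a covariate, and 2 to 94 with 1 library left out, where 94 was without KO3 and 2 without WT1 or WT3.

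With the replicate number as a block, 9 genes passed and no member did. The same-numbered libraries did not deviate together (correlations -0.010, -0.20 and 0.11), so the numbers were not taken to pair them.

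Several directions turned. Satb1 was at 0.13 with the Cd3e covariate and between -0.23 and 0.032 with 1 library left out. The Il7r ratio to Cd8a was at 0.0078 and to the summed Cd3 genes at 0.016, and the Tcf7 ratio to Lck at -0.029. Without KO2 the ratios of Ccr7, Klf2 and S1pr1 turned, although only that of Satb1 had differed more. With 1 library left out, the log2 difference of the ratio to Cd3e ran from -0.11 to 0.37 for Ccr7, -0.035 to 0.0043 for Il7r, -0.11 to 0.0079 for Lef1, -0.058 to 0.16 for Tcf7, -0.052 to 0.44 for Klf2 and -0.0092 to 0.40 for S1pr1. For Satb1 it ran from 0.18 to 0.35, and Satb1 was the only member whose ratio kept its direction in every alternative. The other 6 members kept a log2 fold change in CPM below 0 in all 14 alternatives. Members with KO below all WT numbered 2 with upper-quartile scaling and 0 as a ratio, and genes with a smaller ratio CV than Il7r 0 to 1 with 1 library left out (alternatives chosen after seeing the data). The cause of these changes was not tested. With 3 libraries a group, the 95% intervals are wide, so a missed threshold does not show equal levels.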

Other observations

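The 5 genes outside the members with a pattern over the 6 libraries most like the mean of the members were Tnfrsf26, Pprc1, Gramd4, Ppp2r5a and Mthfd1l. The measure was the root mean square difference of log2 CPM centred on each gene's mean. It was taken among genes whose mean log2 CPM reached 3, with the members left out (against a single member, 9809 genes were compared). It was 0.028 for Tnfrsf26, 0.029 for Pprc1, 0.039 for Gramd4, 0.039 for Ppp2r5a and 0.041 for Mthfd1l.

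Among the members, chosen after their values were seen, the closest pairs by this measure were Ccr7 with Klf2 (0.056), Klf2 with S1pr1 (0.085) and Lef1 with Tcf7 (0.094), and the farthest were Il7r and Klf2 (0.31). The gene closest to Il7r of all those compared was Cd3e (0.031), followed by Cd96 (0.040), and the gene closest to Lef1 was Ccr9 (0.033), a homing receptor for the gut. The single closest genes of the other members were Pkmyt1 for Ccr7 (0.015), Dmac1 for S1pr1 (0.017), Atg4d for Klf2 (0.027) and Abca2 for Satb1 (0.029), while for Tcf7 Siah1a (0.069), Tspyl3 (0.071) and Cd226 (0.072) were nearly level. These 6 points share depth and cell content, and the values carry no test.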
